A study of Caenorhabditis elegans with 16 samples.

Results

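The pharynx cells of first-stage larvae of the nematode Caenorhabditis elegans were examined in a droplet single-cell data set that was made to profile neurons. They were chosen from the authors' annotation of each cell as every cell with the tissue name Pharynx or the class name Pharyngeal_muscle. These rules gave 3761 of 151415 cells. The annotation split them into 5 classes, with 1417 cells named pharyngeal muscle, 1081 named only Pharyngeal_cells, 569 gland cells, 508 arcade cells and 186 marginal cells. They were set against 10737 body wall muscle cells and 29244 other non-neuronal cells of the same libraries. The other non-neuronal cells held 11758 epidermal, 7121 further muscle and mesoderm, 3671 intestinal, 3096 glial, 3028 excretory, 403 rectal and 167 reproductive cells.

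Cells were released from hermaphrodite larvae of strains with fluorescent reporters, sorted by fluorescence with DAPI to set aside dead cells, and captured on the 10x platform, in which a random tag, the unique molecular identifier or UMI, lets copies of 1 transcript be counted once. There were 16 libraries in 13 groups, and all groups but 3 had 1 library. All larvae were labelled wild type and in the first larval stage, except that the label of the oldest age also names the second stage.

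The reporters differed between groups. Strain NC3581 combined otIs708, in which sra-11p drives Scarlet and inx-6p18 drives tagRFP, with the glr-1::GFP array rhIs2, at 12 to 16 h after hatching. Strain PS9221 carried syIs764, with Ptax-4::GFP and Pocr-2::GFP, at 14 to 16 h. Strain OH10689 carried the nuclear rab-3 reporter otIs355 and gave 2 pan-neuronal libraries at 11.5 to 14.5 h. Transgene kyIs262, at 12 to 15 h, joined unc-86::myr-GFP to odr-1::RFP. Strain OH9625 carried otIs292, which pairs eat-4::mCherry with the dominant marker rol-6(su1006), also at 12 to 15 h.

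Strain NC3583 carried stIs10447 (ceh-34p::HIS-24::mCherry with unc-119(+)) and evIs111 (F25B3.3::GFP with dpy-20(+)). Its cells were combined with those of NC2957, which carried wdIs90 (unc-4c::GFP) and ufIs26 (unc-4::mCherry), at 14 to 17 h. That sort was captured once after methanol fixation of the sorted cells and once as live cells. A further library, at 13.5 to 17 h, pooled strains OH16003, EG1285 and ZM5488 with the mec-3::RFP transgene uIs152. The first carried otIs742 (nlp-13::GFP with lin-15(+)), the second oxIs12 (unc-47::GFP with lin-15(+)) in the mutant background lin-15B&lin-15A(n765), and the third hpIs202 (ceh-10::GFP with lin-15(+)). It is called the mec-3 library here.

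The library called the unc-4c library pooled 3 strains at 13 to 17 h. They were CZ631 (juIs14, acr-2::GFP with lin-15(+)), NC3523 (wdIs90, labelled there as unc-4c::GFP with ceh-22::GFP) and PS3504 (syIs54, ceh-2::GFP with unc-119(+), in unc-119(ed4)). Strain UD381 carried ycIs11, in which the hlh-3 promoter drives venus and nuclear tdTomato beside odr-1::gfp. It gave the P-lineage libraries at 11 to 14, 15.5 to 18.5 and 21 to 24 h, the last as 2 libraries. Strain NY2066 carried the flp-7p::GFP transgene ynIs66 and gave 2 libraries at 14 to 17 h. Pooled suspensions cannot be split by strain, and each sort saw only the cells that its promoters and gate let through.

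The pharynx is the feeding pump of the worm, a tube of muscle, epithelium, glands and neurons that sucks in bacteria, grinds them and passes them to the intestine. Its muscle contracts through its own set of myosins and troponins, distinct from those of the body wall muscle that moves the animal, and its identity depends on the organ selector pha-4, a FoxA factor, and on the homeobox factor ceh-22. Marginal cells are the epithelial wedges between the muscle cells, arcade cells join the pharynx to the epidermis of the mouth, and gland cells secrete into the lumen, which is lined with a chitin-containing cuticle that is replaced at each moult.

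Depth was low. The count table held 261228334 UMIs over 18570 genes. Pharyngeal muscle held 1266985 UMIs with a median of 296 per cell, and 62.9% of its cells had fewer than 500. Medians per cell were 252 UMIs in Pharyngeal_cells, 102 in gland cells, 1059 in arcade cells and 1022.5 in marginal cells, against 2610 in body wall muscle and 1232 in other non-neuronal cells. The unc-4c library held 1092167 UMIs of pharyngeal muscle, so any sum over all libraries mostly describes that library, and values without it are given where they differ. Between 2603 and 7838 genes per library had no UMI in any cell, so a level of 0 can mean that a gene was left out of that library. Of the 148627 different cell barcodes, 2756 occurred in more than 1 library, and 115 pharynx cells had such a barcode, none shared with another pharynx cell.

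Pharynx cells were found in all libraries but 1, at very unequal shares. They made up 9.19% of annotated cells in the mec-3 library (738 cells, exact 95% interval 8.57 to 9.85), 7.33% in the unc-4c library (1073 cells, 6.92 to 7.77) and 4.52% in the eat-4 library (783 cells). In cells with at least 500 UMIs the order of the first and second was the other way round, with 3.57% in the mec-3 library and 4.60% in the unc-4c library, and in 14 libraries the share moved outside its interval. The pan-neuronal libraries had 2 cells, or 0.0319%, in replicate 1 and 0 of 6409 cells in replicate 2, which allows a share of up to 0.0468%. Intervals here and below cover counting error only.

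The classes did not come from the same libraries. Pharyngeal muscle was 5.63% of the unc-4c library (824 cells, interval 5.26 to 6.02), and 1.52% or less of each other library. The labels list ceh-22::GFP with the transgene wdIs90 in that library, and list wdIs90 without it in the ceh-34 and unc-4 sort, where pharyngeal muscle was 0.128% of fixed and 0.648% of live cells. Gland cells were 5.41% of the mec-3 library, with 434 of the 569 gland cells. Arcade cells were 2.57% (446 of 508 cells) and marginal cells 0.716% (124 of 186) of the eat-4 library. The Pharyngeal_cells class was the most evenly spread and had at least 20 cells in 11 libraries. The part of each reporter in these shares was not tested.

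**Figure D1:**
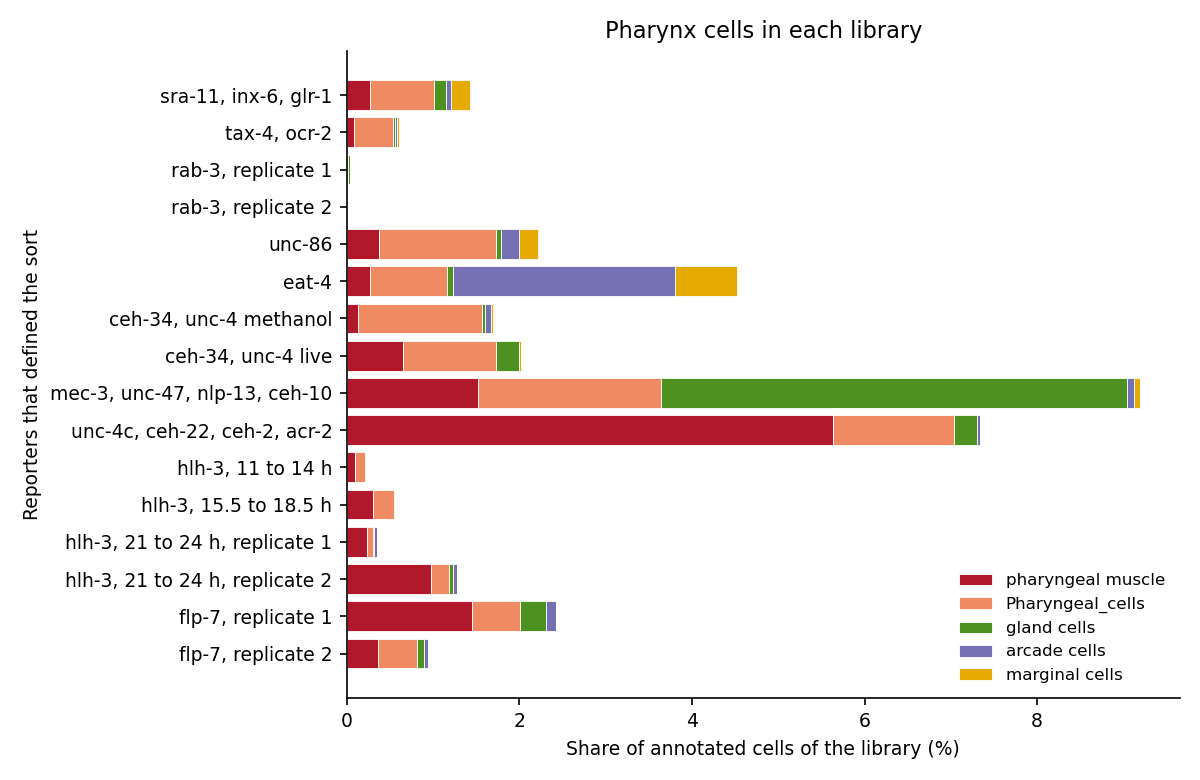
Share of annotated cells (x axis, percent) that each pharynx class took in each of the 16 libraries (y axis, named by the reporters that defined the sort), as stacked bars of all cells, shallow ones included. The mec-3 bar reaches 9.19% and is mostly gland cells, and the unc-4c bar reaches 7.33% and is mostly pharyngeal muscle.

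The authors named the classes from these same cells, so marker genes describe the classes and cannot check their names. Marker genes were counted with each cell thinned to 200 UMIs so that depths match. This left 878 pharyngeal muscle cells and set aside 539 shallower ones. At least 1 UMI of the pharyngeal myosin heavy chain myo-2 was found in 33.1% of them (interval 30.0 to 36.4), of the pharyngeal myosin myo-1 in 22.4%, and of ceh-22 in 4.21%. Unthinned, myo-2 was found in 44.3%. The troponin C tnc-2 was found in 56.9% and the troponin I tni-4 in 38.2%. In body wall muscle, which should lack these genes, myo-2 was found in 0.0314% of 9558 cells, tnc-2 in 0.0209%, and myo-1 and tni-4 in 0.0105% each. The light chain mlc-3 did not mark the pharynx, since it was found in 72.9% of pharyngeal muscle cells and 84.9% of body wall muscle cells. In neurons of the unc-4c library, with a median of 947 UMIs, the shares were 0.243% for myo-2 and 0.256% for tnc-2. The genes myo-1, myo-2, tnc-2 and tni-4 were thus rare in body wall muscle and neurons, although no single one was seen in all pharyngeal muscle cells.

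Markers of the other classes were found at uneven rates. The gland gene phat-4 was found in 76.6% of 167 thinned gland cells (interval 69.5 to 82.8), against 0.114% of pharyngeal muscle cells. In marginal cells marg-1, a gene named for these cells, was found in 16.7%, against 3.53% in pharyngeal muscle. Arcade cells had no UMI of myo-1 or tnc-2 at this depth, and 5.47% of 494 cells had pha-4. For Pharyngeal_cells no markers are implied by the name. Of the thinned cells, 4.00% had pha-4, 1.92% had myo-2 and 5.76% had tnc-2.

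To ask which genes set pharyngeal muscle apart from the other striated muscle of the same animals, the UMIs of each class were summed per library and compared within libraries. The comparison used the 10 libraries with at least 20 cells on both sides, 1253085 UMIs of pharyngeal muscle and 34834089 of body wall muscle. The test was edgeR's quasi-likelihood test with library as a block. A gene was called at a Benjamini-Hochberg adjusted p under 0.05 and a log2 fold change of at least 1 in size. Of 1786 genes tested, 327 (18.3%) were called higher and 347 (19.4%) lower in pharyngeal muscle. The filter on low counts kept a gene that was frequent enough on 1 side alone. A gene near 0 on the other side was therefore tested only where it was high, which set its direction. This holds in all comparisons below. Levels are CPM, the counts of a gene scaled to a fixed total of UMIs of the class in the library. Since the authors named the classes from these same cells, the test measures how steady a difference is over libraries, not whether the classes exist. Without the unc-4c library the counts were 129 higher and 222 lower.

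The scaling mattered for small differences. The median log2 fold change over all genes tested was 0.24. Factors from all tested genes moved it by -0.60, DESeq2 size factors by -0.65 and leaving out mitochondrially encoded and ribosomal protein genes by -0.18. The share of calls that were higher was 48.5% as reported and 24.4%, 22.5% and 39.2% under those scalings. Under all 4 scalings 143 genes stayed higher and all 347 stayed lower.

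The troponins and myosins of the pharynx separated the muscles almost completely. Troponin C tnc-2, the calcium sensor of the pharyngeal thin filament, ran from 2798 CPM through a median of 6307 to 9730 in pharyngeal muscle, and from 0 through a median of 0 to 5.51 in body wall muscle. The sides did not overlap in any library. The log2 fold change of tnc-2 was 14.67 ± 0.49 (SE; edgeR quasi-likelihood test, Benjamini-Hochberg adjusted p 3.1e-12), from 10230 and 10 UMIs. The troponin I gene tni-4 behaved alike, at 1145 to 5358 CPM (median 2821) in pharyngeal muscle and 0 to 1.05 CPM (median 0) in body wall muscle, a log2 fold change of 14.34 ± 0.51 (adjusted p 3.5e-12 in the same test).

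These were the 2 of 6 listed pharyngeal contractile genes that passed the filter on low counts, and both were called higher. Both passed it through pharyngeal muscle, which set their direction, so this count only describes the list. The other 4, myo-1, myo-2, myo-5 and the troponin T tnt-4, were not tested. Myosin myo-2 ran from 0 to 5813 CPM (median 1626) in pharyngeal muscle, against 0 to 1.52 CPM (median 0) in body wall muscle. It was higher in 9 of 10 libraries, and the tenth, from the P lineage at 15.5 to 18.5 h, had no myo-2 UMI in any cell. Myosin myo-1 ran from 0 to 3474 CPM (median 606), against 0 to 2.44, and tnt-4 from 0 to 3964 CPM (median 1808), against 0 to 0.505. Myosin myo-5 had 1420 UMIs in pharyngeal muscle and none in body wall muscle. The factor ceh-22 ran from 0 to 266 CPM (median 63.8), against 0 to 2.09, and was at 0 in 4 libraries.

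The contractile genes of body wall muscle were lower in turn. Of 9 listed and tested, 7 fell, 1 rose and 1 was not called, with a median log2 fold change of -6.54. Of all tested genes 19.4% fell. Members near 0 in pharyngeal muscle, such as myo-3, passed the filter through body wall muscle, which set their direction. The count therefore mainly describes the list. Body wall troponin C pat-10 was at 0 to 2673 CPM (median 167) in pharyngeal muscle, against 18413 to 61436 CPM (median 43156) in body wall muscle. Its levels did not overlap, and the log2 fold change was -7.12 ± 0.72 (edgeR, adjusted p 7.3e-07). The troponin T gene mup-2 had a log2 fold change of -6.60, its relative tnt-2 of -6.54 and the troponin I gene unc-27 of -6.39. Of the body wall myosin myo-3 a single UMI was found in pharyngeal muscle, against 40510 in body wall muscle, a ratio of 0.000686 (exact 95% interval 1.74e-05 to 0.00382).

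The member that rose was tnt-3, a troponin T gene, at 141 to 9609 CPM (median 1445) in pharyngeal muscle, against 75.7 to 383 CPM (median 236) in body wall muscle. It was higher in 9 of 10 libraries, although the ranges overlapped, with a log2 fold change of 3.54 ± 0.40 (edgeR, adjusted p 2.2e-06). Summed over all libraries its level in pharyngeal muscle was 8591 CPM, and 2231 CPM without the unc-4c library. The member not called was unc-54, the main myosin heavy chain of body wall muscle, at 0 to 14182 CPM (median 1455), against 2412 to 6842 CPM (median 3837). Only the unc-4c library had more of it in pharyngeal than in body wall muscle. Summed, unc-54 was at 12441 CPM in pharyngeal muscle, at 1562 CPM without that library, and at 40102 CPM in neurons. Many worm reporter transgenes end in unc-54 sequence, so reads of the gene and of a reporter cannot be told apart here.

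**Figure D2:**
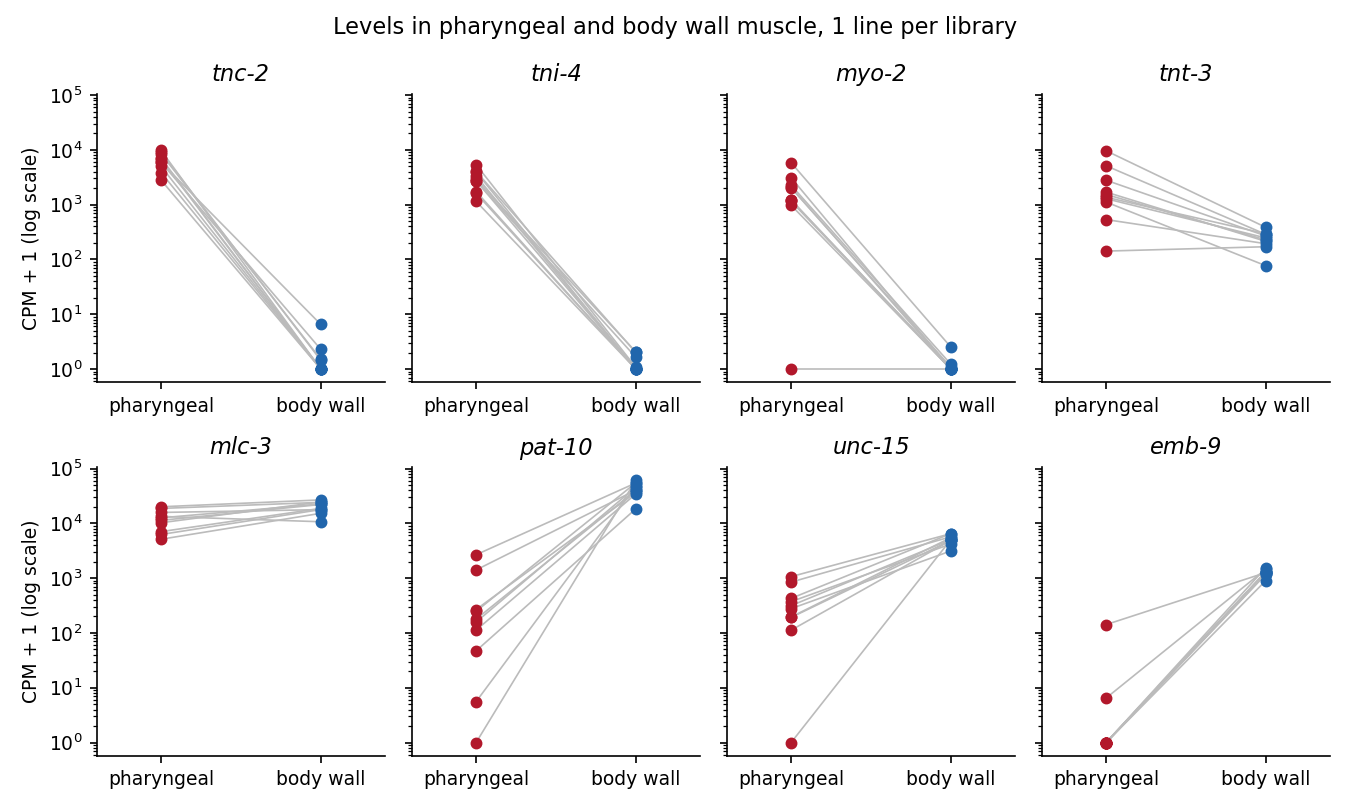
Levels of 8 genes (y axis, CPM + 1 on a log scale) in pharyngeal muscle (left) and body wall muscle (right), with 1 line for each of 10 libraries. Lines of tnc-2 and tni-4 fall steeply from pharyngeal to body wall muscle, those of pat-10, unc-15 and emb-9 climb, and those of mlc-3 are nearly flat.

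Genes of the sarcomere that both muscles use were mostly lower in pharyngeal muscle. Of 32 tested, 21 fell, 1 rose and 10 were not called, with a median log2 fold change of -1.85 against 0.24 over all genes. Of all tested genes 19.4% fell. Tropomyosin lev-11 was at 1557 to 6768 CPM (median 3374), against 7291 to 19559 CPM (median 15774) in body wall muscle, a log2 fold change of -1.70 ± 0.24 (edgeR, adjusted p 3.6e-05). Paramyosin unc-15, the core of thick filaments, was at 0 to 1064 CPM (median 295), against 3136 to 6495 CPM (median 5051), a log2 fold change of -3.28 ± 0.32 (adjusted p 5.2e-07 in edgeR). Neither gene overlapped between the muscles. The titin ttn-1 fell by 3.61 and the attachment protein unc-95 by 5.36 on the log2 scale.

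The regulatory and essential myosin light chains were closer. The light chain mlc-3 was at 5124 to 20043 CPM (median 11971) in pharyngeal muscle and 10686 to 26758 CPM (median 20399) in body wall muscle, and its log2 fold change of -0.30 ± 0.19 was not called (edgeR, adjusted p 0.24). The actin act-2 was the member that rose, at 0 to 274 CPM, against 13.4 to 107 CPM, with a log2 fold change of 2.74 ± 0.45 (edgeR, adjusted p 0.00012) and higher levels in 7 of 10 libraries. The actin genes act-1 to act-4 and the light chains mlc-1 and mlc-2 are near copies, and how reads were divided among them is not given.

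Of 12 tested genes of excitation and calcium handling, 2 rose, 4 fell and 6 were not called, with a median of -0.31. The share that rose was no higher than the 18.3% of all tested genes. The sodium-calcium exchanger ncx-2 was at 0 to 876 CPM (median 459), against 18.6 to 178 CPM (median 103.8), a log2 fold change of 2.69 ± 0.43 (edgeR, adjusted p 1e-04), and was higher in 9 of 10 libraries. The genes that fell were sca-1, csq-1, unc-68 and slo-1. The sarcoplasmic calcium pump sca-1 was at 0 to 501 CPM (median 129), against 787 to 1717 CPM (median 1065), with no overlap and a log2 fold change of -2.34 ± 0.38 (adjusted p 0.00012 in edgeR). Calsequestrin csq-1, which binds stored calcium, fell by 1.80, the ryanodine receptor unc-68 by 2.1 and the potassium channel slo-1 by 2.12 on the log2 scale. The second member that rose, the sodium pump eat-6, was not called under all 4 scalings. The calcium channel egl-19 was at 0 to 129 CPM, against 57 to 116 CPM, and was not called (adjusted p 0.59).

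Only 3 of 30 listed transmitter receptor genes were tested, of which 2 fell, lev-1 and unc-49, and the receptor chaperone ric-3 was not called (adjusted p 0.69). Both lev-1 and unc-49 passed the filter through body wall muscle, which set their direction. The acetylcholine receptor subunit lev-1 had 0 UMIs in pharyngeal muscle, against 1836 in body wall muscle, which makes it at least 22-fold lower against a floor of 3 UMIs over the group. The muscle master factor hlh-1, the worm MyoD, had 0 against 1937 UMIs and was at least 23.2-fold lower. The GABA receptor unc-49 was at 0 to 53.2 CPM (median 0), against 51.8 to 231 CPM (median 163), a log2 fold change of -3.01 ± 0.53 (edgeR, adjusted p 0.00026). In contrast unc-120, the serum response factor of muscle, was not called, at 0 to 184 CPM, against 60.1 to 187 CPM (adjusted p 0.24). The receptors known from the pharynx were near the limit of detection. Summed over all libraries, the glutamate-gated chloride channel avr-15 was at 36.3 CPM (46 UMIs) in pharyngeal muscle and 0.403 CPM in body wall muscle. The nicotinic subunit eat-2, needed for fast pumping, had 1 UMI in pharyngeal muscle and 10 in marginal cells.

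Most tested basement membrane genes were lower as well. Of 9 tested, from 17 listed, 7 fell, none rose and 2 were not called, with a median log2 fold change of -5.48. Of all tested genes 19.4% fell. Members near 0 in pharyngeal muscle, such as emb-9 and epi-1, passed the filter through body wall muscle, which set their direction. The type IV collagen emb-9 was at 0 to 141 CPM (median 0), against 904 to 1553 CPM (median 1297), a log2 fold change of -7.26 ± 0.53 (edgeR, adjusted p 2.4e-08). The collagen let-2 fell by 6.53 and ost-1, the worm SPARC, by 6.61 on the log2 scale, both without overlap. Of the laminin epi-1 1 UMI was found, against 10703, a ratio of 0.00260 (6.58e-05 to 0.0145). The perlecan unc-52 was not called, at 0 to 490 CPM (median 60.1), against 41.9 to 143 CPM (median 71.9; adjusted p 0.11).

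Some genes better known from epithelia were higher. Of 16 listed epithelial genes 4 were tested, of which 3 were called higher and 1 was not called. Of all tested genes 18.3% were called higher. The intermediate filament ifa-1 was at 161 to 1751 CPM (median 1026) in pharyngeal muscle, against 0 to 0.884 CPM (median 0) in body wall muscle, a log2 fold change of 12.07 ± 0.49 (edgeR, adjusted p 1.9e-11). Its partner ifb-1 was at 108 to 1286 CPM (median 444), against 0 to 8.31 CPM, a log2 fold change of 9.73 ± 0.66 (adjusted p 1.1e-08 in edgeR). Neither overlapped in any library. Both were near 0 in body wall muscle and passed the filter through pharyngeal muscle, which set their direction. The count above therefore mainly describes the list. The lowest ifa-1 level was that of the unc-4c library. Summed without that library, ifa-1 stood at 1127 CPM in pharyngeal muscle, against 294 CPM with it and 651 CPM in marginal cells.

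The marginal cell gene marg-1 varied in the same cells, from 0 in the NC3581 library and 36.6 CPM in the unc-4c library to 3948 CPM in the eat-4 library. Summed over the libraries other than unc-4c it was at 1447 CPM in pharyngeal muscle and 1162 CPM in marginal cells. The part of marginal cell RNA in the muscle sums was not tested.

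The pharyngeal cuticle gene pqn-31 was at 46.1 to 1857 CPM (median 288), against 0 to 1.92 CPM, with a log2 fold change of 9.63 ± 0.75 (edgeR, adjusted p 5.5e-08). It was the single cuticle gene that passed the filter, and it did so through pharyngeal muscle. Of 31 mitochondrial respiration genes 1 rose and none fell, at a median of 0.52, and that 1 call did not hold under all 4 scalings. Of 10 heat shock genes 1 rose, 2 fell and 7 were not called, shares close to or below those of all tested genes.

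Markers of neurons moved with the comparison and are given for that reason. Of 15 listed, only 3 were tested, and 18.3% of all tested genes rose. Of the 3, 2 rose, the synaptic gene snb-1 by 2.05 ± 0.39 and the neuroendocrine chaperone sbt-1 by 3.52 ± 0.45 on the log2 scale (edgeR, adjusted p 0.00051 and 1e-05). Summed over 15 listed genes, neuron markers were at 382 to 2724 CPM (median 1349) in pharyngeal muscle and 135 to 743 CPM (median 262) in body wall muscle of the same 10 libraries. The part of neuronal RNA in the results was not tested. Summed coelomocyte markers ran from 0 to 141 CPM, gland markers from 0 to 220 CPM, epidermis markers from 0 to 282 CPM and intestine markers from 0 to 584 CPM in pharyngeal muscle. Coelomocyte markers had 1 UMI and glia markers 2 UMIs there in all. Body wall muscle factors summed to 0 to 184 CPM, with hlh-1 at 0, and body wall contractile genes to 1362 to 23816 CPM. The part of body wall muscle RNA in the pharyngeal muscle sums was not tested.

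**Figure D3:**
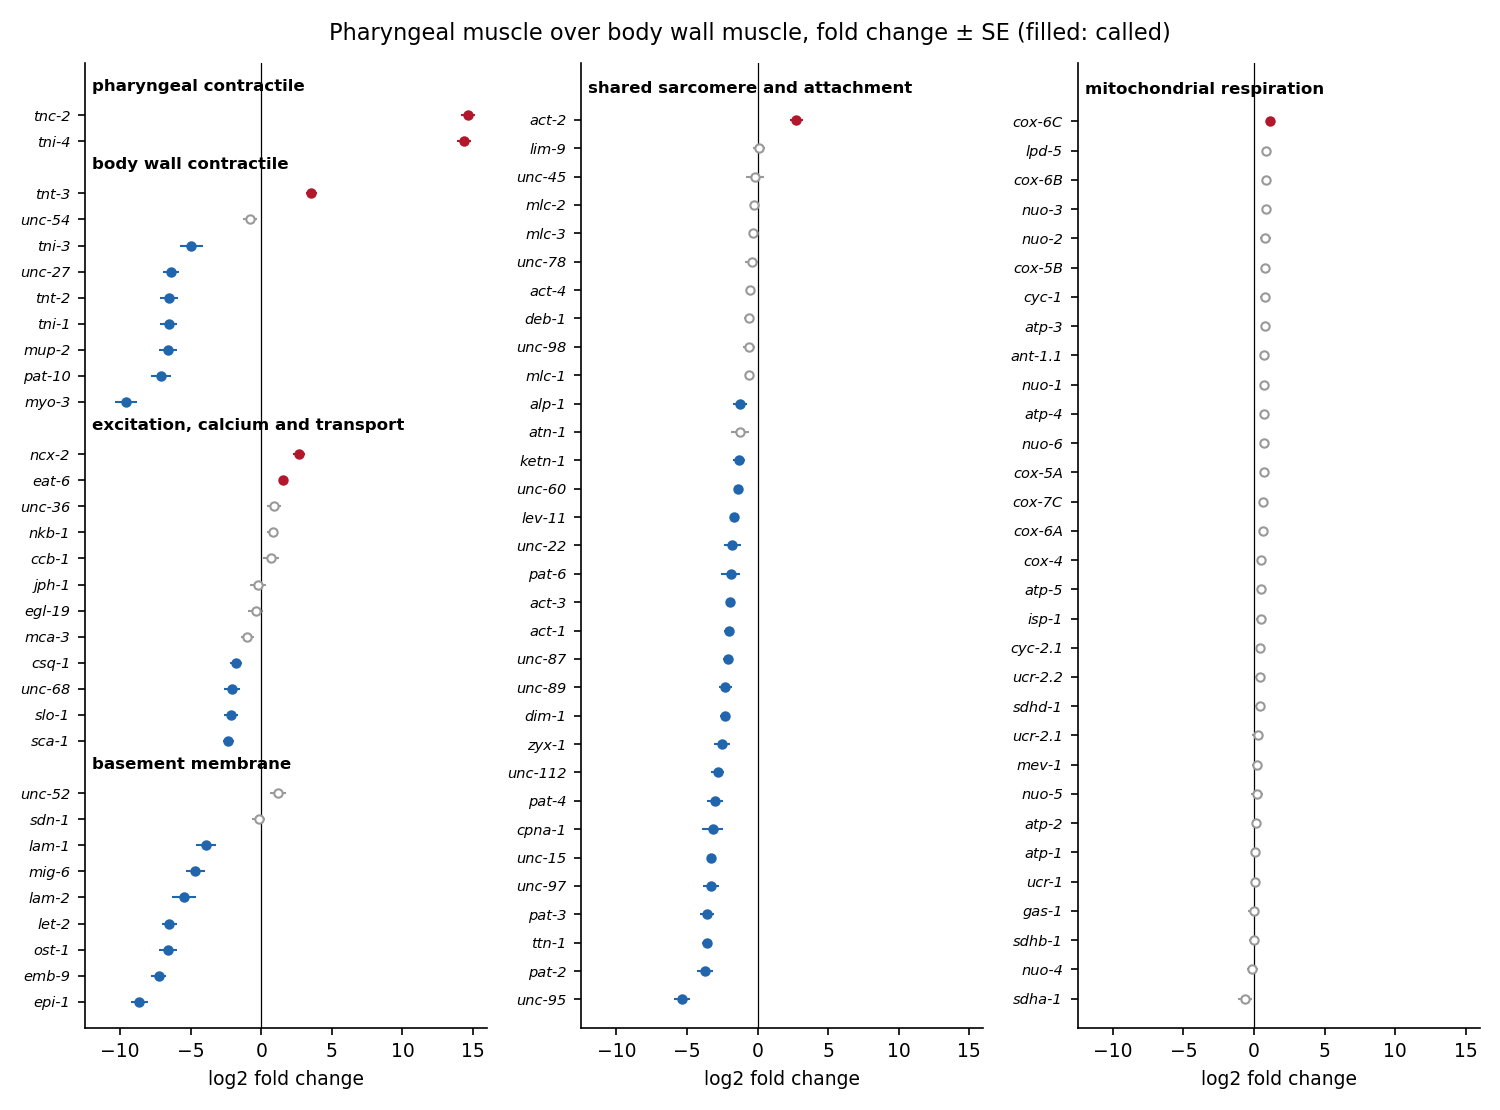
Log2 fold change of pharyngeal over body wall muscle ± SE (x axis) for tested genes of 6 lists (y axis), filled in red where called higher, filled in blue where called lower and open where not called. Pharyngeal contractile genes stand near 14.34 to 14.67, basement membrane genes lie mostly below zero, and mitochondrial genes cluster around their median of 0.52.

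Some of the steadiest differences were in genes with little annotation. By the smallest p among genes with the same sign in every library, the list of higher genes began with fipr-2, a small secreted peptide gene, at 461 to 17755 CPM (median 5323), against 0 to 2.56 CPM (log2 fold change 13.82 ± 0.38, edgeR, adjusted p 3.7e-13). The calponin-like gene clik-2 was at 2840 to 8205 CPM (median 4339), against 0 to 2.44 CPM. The small heat shock gene hsp-12.2 was at 2005 to 6361 CPM (median 3981), against 0 to 3.67 CPM. Also on that list were tnc-2, tni-4, ifa-1, F35B12.3, C01G10.15, Y73F4A.2 and F07C3.9. The list of lower genes held lbp-2, a fatty acid binding protein, with 4 against 62692 UMIs, and the transthyretin-like ttr-16, with 9 against 159874 UMIs. It also held emb-9, epi-1, C18B2.3, test-1, the cathepsin cpl-1, Y53H1B.2, Y17D7B.4 and Y69E1A.5.

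Pharyngeal muscle was then compared with all other non-neuronal cells except body wall muscle, in 10 libraries and with the same test. Of 3785 genes, 401 (10.6%) were called higher and 301 (7.95%) lower, and without the unc-4c library 209 were higher and 165 lower. Here the scale mattered more. The median log2 fold change was -0.13, and the other scalings moved it by -0.85, -0.97 and -1.1. The share of calls that were higher was 57.1% as reported and 13.7%, 11.3% and 9.42% under them. All 4 scalings kept 157 higher and 301 lower genes, and the genes named next are among these unless said otherwise.

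The pharyngeal contractile genes were again far higher. All 4 that passed the filter were called, at a median log2 fold change of 11.00. They passed it mainly through pharyngeal muscle, so this count only describes the list. Myosin myo-2 was at 0 to 5813 CPM (median 1626), against 0 to 62.4 CPM (median 0.789), a log2 fold change of 10.71 ± 1.05 (edgeR, adjusted p 8.1e-08). Its level was higher in 9 of 10 libraries. The sarcomere list gave 17 higher genes of 27 and none lower, 10 of them under all scalings. Of all tested genes 10.6% were higher. The light chain mlc-2 was at 1949 to 4943 CPM (median 3423), against 3.68 to 1386 CPM (median 90.2), without overlap and with a log2 fold change of 5.4 ± 0.62 (adjusted p 6.8e-07 in edgeR). Of 7 tested body wall contractile genes only tnt-3 was called, higher by 8.83 on the log2 scale.

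The organ selector pha-4 was at 0 to 282 CPM (median 148), against 0 to 56.6 CPM (median 1.95), a log2 fold change of 5.09 ± 0.84 (edgeR, adjusted p 0.00011). It was higher in 8 of 10 libraries. Exchanger ncx-2 was at 0 to 876 CPM (median 459), against 2.76 to 38.8 CPM (median 15.0), a log2 fold change of 5.06 ± 0.49 (adjusted p 4.5e-08 in edgeR). It was 1 of 4 higher genes among 7 of excitation and transport and the single one that all scalings kept. The cuticle genes pqn-31 and abu-14 both rose, abu-14 by 8.05 ± 0.98 on the log2 scale (edgeR, adjusted p 2.1e-06). It was at 0 to 7838 CPM (median 2003), against 0 to 182 CPM. Of 11 tested epithelial genes 2 were higher, against 10.6% of all tested genes, and none fell. All scalings kept 1 of these calls. The median of the list was -0.12, against -0.13 over all genes.

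Respiration genes were higher as a group, with a reservation. Of 31 tested 22 rose, against 10.6% of all tested genes, and none fell, at a median of 1.30. Only cox-6C, a subunit of cytochrome oxidase, was called under all 4 scalings, and atp-1 and ant-1.1 changed sign under 2 of the alternatives. Levels of cox-6C were 764 to 3892 CPM (median 1986) in pharyngeal muscle and 203 to 663 CPM (median 419) in other non-neuronal cells, without overlap, for a log2 fold change of 2.3 ± 0.34 (edgeR, adjusted p 2.3e-05). In the 10 compared libraries mitochondrially encoded genes took 0.305 to 7.61% of UMIs in pharyngeal muscle (median 3.81), 0.723 to 4.39% in body wall muscle (median 1.32) and 0.511 to 2.28% in other non-neuronal cells (median 0.787). Ribosomal protein genes took 11.2 to 25.6% of UMIs in pharyngeal muscle (median 18.4), 21.2 to 29% in body wall muscle (median 25.7) and 21.0 to 37.1% in other non-neuronal cells (median 26.5).

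Fewer groups were lower. The other side mixes several tissues, which were not matched between libraries. A gene near 0 in muscle passed the filter through that side, which set its direction. All 3 tested innexins, the gap junction proteins, fell, against 7.95% of all tested genes, at a median of -3.62. Of them inx-13 was at 0 to 88.7 CPM (median 0), against 2.96 to 322 CPM (median 102), a log2 fold change of -3.62 ± 0.87 (edgeR, adjusted p 0.0040). The innexin known from the pharynx, inx-6, was not tested and was at 78.9 CPM over all libraries and 217 CPM without unc-4c, against 0.0807 CPM in body wall muscle. The NC3581 strain carries an inx-6 promoter reporter. The coelomocyte gene cup-4 had 0 against 23443 UMIs and was at least 173-fold lower. The intestinal protease asp-1 fell by 3.35, the secreted basement membrane protein mig-6 by 4.29 and the lipid binding protein far-1 by 4.76 on the log2 scale. Neuron markers gave 4 higher of 9, against 10.6% of all tested genes, with rab-3 the single one kept by all scalings. They summed to 382 to 2724 CPM (median 1349), against 391 to 869 CPM (median 623) in the same 10 libraries.

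Of 13 heat shock genes tested 1 rose and 1 fell, shares near those of all tested genes (10.6% and 7.95%). The small heat shock gene hsp-17 was at 0 to 2335 CPM (median 515), against 0 to 131 CPM (median 9.06), a log2 fold change of 5.4 ± 1.04 (edgeR, adjusted p 0.00058). The chaperone hsp-4 of the endoplasmic reticulum was at 0 to 138 CPM (median 0), against 33.6 to 10967 CPM (median 92.2), a log2 fold change of -4.25 ± 0.65 (adjusted p 4e-05 in edgeR). The higher genes with the smallest p were Y87G2A.19, Y73F4A.2, R02C2.7, R02F11.1, F59B10.3, tnc-2, tni-4, hsp-12.2, T03F1.11 and the calponin gene cpn-4. The last was at 659 to 2339 CPM (median 1287), against 0.315 to 63.4 CPM. On the lower side were Y73F4A.1, nspc-20, Y116A8C.3, ZK380.6, F59C12.4, clec-178, far-1, F53F4.13, C02E7.6 and M60.4. The lectin gene clec-178 had 0 against 80433 UMIs, at least 594-fold lower.

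Within pharyngeal muscle some genes were steady between libraries and others were not. Among contractile genes tnc-2 stayed at 2798 to 9730 CPM, mlc-3 at 5124 to 20043 CPM and tni-4 at 1145 to 5358 CPM, while myo-2, myo-1, tnt-4 and unc-54 were at 0 in at least 1 library and reached 5813, 3474, 3964 and 14182 CPM in others. T03F1.11 stayed at 5458 to 18878 CPM and hsp-12.2 at 2005 to 6361 CPM. Several small peptide and cuticle genes also spread from 0 to high levels. The fipr genes, named for peptides induced by fungal infection, ran from 0 in the live ceh-34 library to 28064 CPM at 15.5 to 18.5 h in the P lineage for fipr-1. For fipr-6 the level was 25010 CPM in that same P-lineage library, 17629 CPM in the mec-3 library and 0 in 3 libraries. The gene nspb-12 was at 17127 CPM in the mec-3 library and 0 in 5 libraries.

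Pharyngeal cuticle genes differed in another order. The most abu-8 was found at 15.5 to 18.5 h, with 16800 CPM, and 4 libraries had none. The most abu-14 was found in the unc-4c library, with 7838 CPM, and the eat-4 library and flp-7 replicate 1 had none. The fipr, nspb and abu genes form families of near copies, so levels of single members are uncertain. Library, strain, age and sort cannot be told apart for most of these values.

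**Figure D4:**
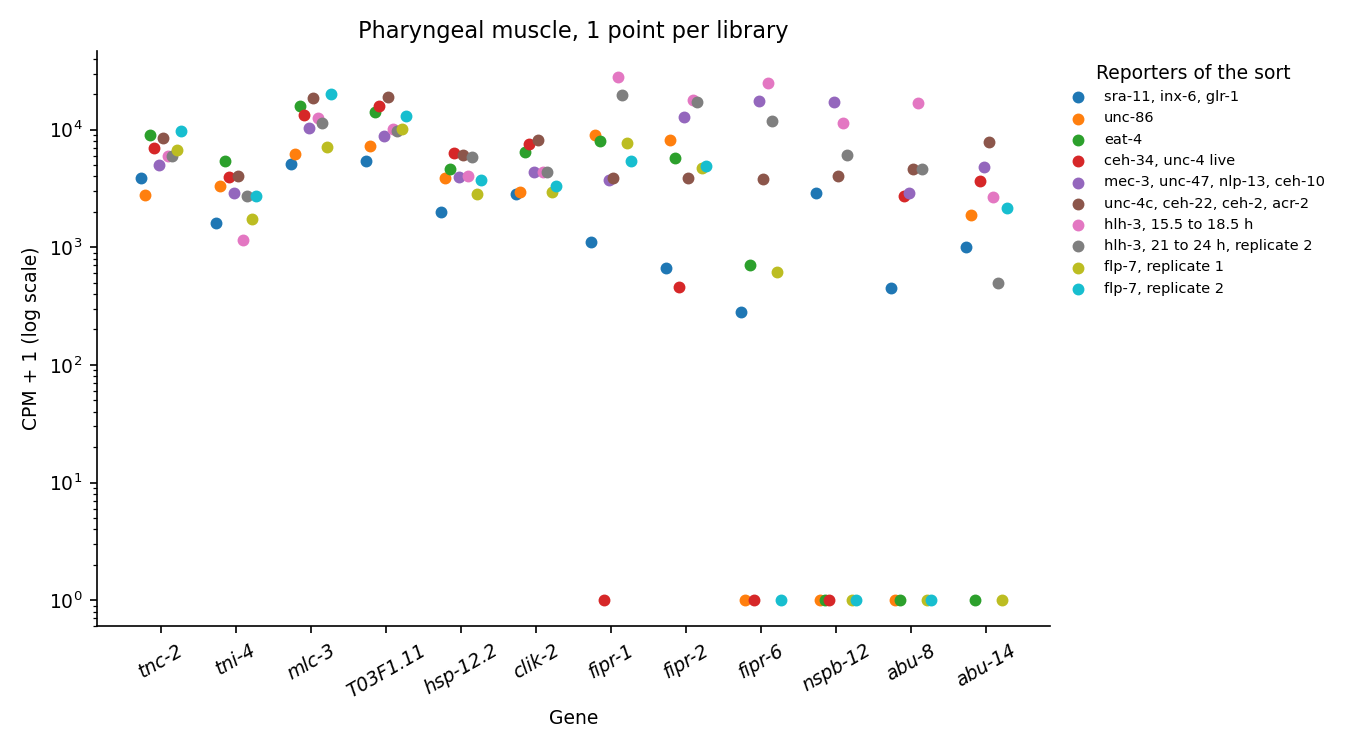
Levels of 12 genes in pharyngeal muscle (y axis, CPM + 1 on a log scale), with 1 point for each of 10 libraries. The points of tnc-2, mlc-3 and T03F1.11 lie close together, while those of fipr-6, nspb-12 and abu-8 spread from 0 to at least 16800 CPM.

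Age could be followed within 1 strain only by description, since the P-lineage libraries held 11 muscle cells at 11 to 14 h, 22 at 15.5 to 18.5 h, and 17 in the first replicate at 21 to 24 h, while the second gave 56339 UMIs of muscle. In that order tnc-2 was at 1693, 5918, 10471 and 5928 CPM, and mlc-3 at 5418, 12600, 17951 and 11342 CPM. The lowest value of both genes was the youngest, and of the replicates at the oldest age the first was above the middle age in both genes while the second was close to it or below. In the same order fipr-2 was at 5757, 17755, 13650 and 17182 CPM and fipr-6 at 0, 25010, 5610 and 11750 CPM. The first library gave only 2953 UMIs of muscle, in which 5 were of tnc-2. No test was made.

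The Pharyngeal_cells class was set against pharyngeal muscle in 9 libraries, with 761182 and 1247847 UMIs. Of 339 genes tested, 68 (20.1%) were called higher and 59 (17.4%) lower in Pharyngeal_cells. Scaling mattered little, since 63 higher and 56 lower calls held under all 4 scalings. The median log2 fold change over all genes was 0.13.

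Contractile genes were lower in Pharyngeal_cells. All 5 tested pharyngeal contractile genes fell, against 17.4% of all tested genes, at a median of -3.29. They passed the filter mainly through pharyngeal muscle, which favored this direction, so the count mainly describes the list. Troponin tnc-2 was at 8.54 to 5055 CPM (median 128) in Pharyngeal_cells, against 2798 to 9730 CPM (median 6686) in pharyngeal muscle, a log2 fold change of -3.74 ± 0.81 (edgeR, adjusted p 0.0049). The light chain mlc-2 was at 32.9 to 1735 CPM (median 310), against 1949 to 4943 CPM (median 3503), a log2 fold change of -3.35 ± 0.64 (adjusted p 0.0032 in edgeR). The levels of mlc-2 did not overlap, and those of tnc-2 did. Myosin myo-2 was at 0 to 4059 CPM (median 159), against 973 to 5813 CPM (median 2028), with a log2 fold change of -3.29 ± 0.99 (edgeR, adjusted p 0.021), and it was not called without the unc-4c library (-3.25).

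Respiration genes were lower too. Of 16 tested respiration genes 11 were lower and none higher, at a median of -1.13, and 8 of them were lower under all scalings. Of all tested genes 17.4% were lower. The cytochrome oxidase subunit cox-6C was at 197 to 719 CPM (median 406), against 891 to 3892 CPM (median 1999), a log2 fold change of -1.82 ± 0.19 (edgeR, adjusted p 0.00032). Cytochrome c, encoded by cyc-2.1, was at 209 to 1174 CPM (median 530), against 1255 to 3343 CPM (median 2140), a log2 fold change of -1.55 ± 0.20 (adjusted p 0.00051 in edgeR). Neither overlapped. The other genes with the smallest p on this side included cox-7C, mai-2, ril-1, F46H5.3, F23H11.5, R04F11.2, R53.4 and T27E9.2.

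Genes higher in Pharyngeal_cells included a secreted protease, regulators and small heat shock proteins. The astacin protease nas-4 was at 298 to 5419 CPM (median 2071), against 0 to 390 CPM (median 0), a log2 fold change of 6.78 ± 0.73 (edgeR, adjusted p 0.00032), and was higher in 9 of 9 libraries. The developmental clock gene lin-42, a relative of Period, was at 169 to 691 CPM (median 468), against 0 to 390 CPM (median 71), a log2 fold change of 2.23 ± 0.39 (adjusted p 0.0030 in edgeR). Chromatin remodelling gene nurf-1 rose by 1.97 ± 0.35 and rsf-1 by 2.66 ± 0.46 on the log2 scale (adjusted p 0.0030 for both in edgeR). C28C12.4, at 3358 to 21992 CPM (median 11994), against 263 to 4845 CPM (median 1798), and F30H5.3, at 280 to 3397 CPM, against 0 to 557 CPM, were also higher in every library. The other genes of that rule were K04H4.2, F53E2.2, C30E1.9 and tos-1.

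Of 6 tested heat shock genes 4 rose, against 20.1% of all tested genes. The small heat shock gene hsp-16.41 was at 340 to 4001 CPM (median 2576), against 116 to 2005 CPM (median 502), a log2 fold change of 1.88 ± 0.33 (edgeR, adjusted p 0.0030), and hsp-16.2 rose by 1.44 ± 0.36 (adjusted p 0.0093 in edgeR). The call of hsp-16.11 was lost without the eat-4 library (1.23), the mec-3 library (1.38) or the unc-4c library (1.23).

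Several regulators and chitin genes were too sparse for the test and are given by counts. The Six-family homeobox gene ceh-34 had 318 UMIs in Pharyngeal_cells and 13 in pharyngeal muscle, a ratio of 40.1 (23.1 to 76.1). Its cofactor eya-1 had 138 and 2 UMIs, a ratio of 113 (30.7 to 943). The homeobox gene ceh-2 had 369 and 66 UMIs, the pharyngeal factor peb-1 had 285 and 46, and pha-4 had 219 and 213 (ratio 1.69, 1.39 to 2.05). The first 4 of these factors had far more UMIs in the smaller sum, while the organ selector was frequent in both classes. Reporters of ceh-34 and ceh-2 were part of the sorts.

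The chitin synthase chs-2, which builds the pharyngeal lining, had 542 UMIs in Pharyngeal_cells and 166 in pharyngeal muscle, and the chitinase cht-2 had 1115 and 12. In single libraries chs-2 ran from 0 to 2573 CPM (median 508), against 0 to 151 CPM (median 0), and cht-2 from 0 to 3964 CPM (median 1353), against 0 to 11.0 CPM (median 0). The ranges overlapped at 0. These counts rest on unequal numbers of UMIs per library and carry counting error only.

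The Pharyngeal_cells class was also the only pharynx class with enough cells to set methanol-fixed against live cells of the ceh-34 and unc-4 sort, with 45 fixed and 83 live cells and 23149 and 35434 UMIs. There was 1 library on each side and no test. Of 197 genes that had 50 or more UMIs over both libraries, 20 were more than 2-fold higher and 115 more than 2-fold lower in fixed cells, and the median log2 ratio was -1.81. The ribosomal RNA gene rrn-3.1 took 28.4% of UMIs in fixed cells and 9.43% in live cells, which by construction lowers the CPM of other genes in fixed cells. How much of the median ratio this makes up was not tested. Many of the genes that were more than 2-fold lower were ribosomal protein genes. The largest ratios above 1 were those of sup-37 (42 UMIs in fixed and 13 in live cells), the cuticle gene pqn-13 (71 and 27), pqn-26, the ribosomal RNA gene rrn-3.56 and nep-1. Level of pqn-13 was 3067 CPM in fixed cells and 762 CPM in live cells, a log2 ratio of 1.99. The most lowered had 0 UMIs in fixed cells, among them the ribosomal protein genes rpl-41.2 (202 UMIs in live cells), rps-25 (190) and rpl-38 (139), hsp-4 (128) and Y58A7A.5 (207). Ribosomal protein genes took 1.106% of UMIs in fixed cells and 17.5% in live cells, and mitochondrially encoded genes 0.907% and 2.23%. The fixed library was also the lowest for ribosomal protein genes in body wall muscle, at 7.36% against 20.6% or more in the other libraries, and in other non-neuronal cells, at 4.15% against 12.4% or more.

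Gland cells were compared with pharyngeal muscle in the 3 libraries with at least 20 cells of both (mec-3, unc-4c and live ceh-34), with 727582 and 1145741 UMIs. Of 442 genes tested, 89 (20.1%) were higher and 130 (29.4%) lower in gland cells, and 88 and 126 held under all 4 scalings. Without the live ceh-34 library 159 were higher and 252 lower, and without the mec-3 library 23 were lower. The median over all genes was 0.07.

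Every tested gene of the gland list was higher, 7 of 7, at a median of 10.36, against 20.1% of all tested genes. They passed the filter through gland cells, which set their direction, so this count only describes the list. The bHLH factor hlh-6, required for gland identity, was at 309, 435 and 654 CPM in gland cells, against 0, 0 and 0.916 CPM in pharyngeal muscle. That single muscle UMI gave a ratio of 510 (90.9 to 2.02e+04). The secreted protein gene phat-4 was at 29486, 31948 and 82952 CPM, against at most 157 CPM, a log2 fold change of 10.99 ± 1.43 (edgeR, adjusted p 0.0017). Its relative phat-2 was at 4277, 15108 and 18871 CPM, against 0, 5.49 and 31.4 CPM (11.02 ± 1.15, adjusted p 0.00078 in edgeR). The metalloprotease nas-12 had 1272 and 1 UMIs.

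A handful of secreted products made up much of the gland RNA. The gene dod-6 alone was at 162398, 172669 and 288080 CPM in gland cells, against 0, 40.3 and 282 CPM in pharyngeal muscle, a log2 fold change of 12.27 ± 2.46 (edgeR, adjusted p 0.0085). T20G5.8 followed at 29683, 49641 and 57847 CPM, against 0, 6.41 and 62.7 CPM. Of the antibacterial peptide gene abf-2 3028 UMIs were found in gland cells and 1 in pharyngeal muscle. The lysozyme lys-8 was at 3314, 3778 and 7244 CPM, against 0, 0 and 177 CPM (7.03 ± 1.39, adjusted p 0.0083 in edgeR), a call that was lost without the mec-3 library (5.73). CPM are shares of a total, so a gene that takes a large share lowers the CPM of the others. By the smallest p the higher genes also included M163.8, msrp-7, C32H11.6, Y62F5A.9, C49G7.10, F41G3.10, B0507.1 and R05G6.9.

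Muscle genes were lower in gland cells. All 6 tested pharyngeal contractile genes fell, 9 of 10 sarcomere genes fell and none rose, and 17 of 20 respiration genes fell, 15 of them under all scalings. Of all tested genes 29.4% were lower. Members near 0 in gland cells, such as myo-5 and tnt-4, passed the filter through pharyngeal muscle, which set their direction. The contractile count therefore mainly describes the list. Troponin tnc-2 was at 127, 145 and 786 CPM, against 4987, 7007 and 8512 CPM, a log2 fold change of -3.87 ± 0.48 (edgeR, adjusted p 0.0014). The cytochrome oxidase subunit cox-6C was at 36.3, 105 and 197 CPM, against 1098, 2028 and 2036 CPM (-3.11 ± 0.59, adjusted p 0.0071 in edgeR). Neither overlapped. All 4 tested cuticle genes were lower as well, at a median of -7.94. Of these, abu-8 and abu-10 were at 0 in gland cells and passed the filter through pharyngeal muscle, which set their direction. By the smallest p the lower genes were W08E12.2, nspb-11, fipr-3, fipr-4, pqn-94, T06E4.10, act-1, abu-8, tnt-4 and F35B12.3, the last of which was not called without the mec-3 library.

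Marginal cells were compared with pharyngeal muscle in the NC3581, unc-86 and eat-4 libraries, with 230917 and 32552 UMIs. Only 3 of 332 genes (0.904%) were higher and 2 (0.602%) lower by edgeR, and no gene of any list was called. An unadjusted p under 0.05 was reached by 70 genes. The counts moved with each library left out, with 0 higher and 0 lower without unc-86, 13 and 15 without eat-4, and 11 and 19 without NC3581.

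The transthyretin-like gene ttr-21 was at 9071, 9586 and 14452 CPM in marginal cells, against 1448, 1466 and 2115 CPM in pharyngeal muscle, a log2 fold change of 2.70 ± 0.26 (edgeR, adjusted p 0.0050). The antibacterial peptide gene abf-6 was at 2792, 4478 and 13122 CPM, against 266, 334 and 564 CPM (3.84 ± 0.37, adjusted p 0.0050 in edgeR), and T28F4.5 was the third. The peptide gene fipr-1 was at 64.6, 194 and 371 CPM, against 1114, 8037 and 8927 CPM (-4.81 ± 0.38, adjusted p 0.0047 in edgeR), and T03F1.11 was also lower. Contractile genes had lower levels in marginal cells without being called. For tnc-2 these were 134, 856 and 1194 CPM, against 2798, 3843 and 9024 CPM, and the log2 fold change of -2.98 ± 0.97 had an adjusted p of 0.20 in edgeR. Levels of marg-1 were 1023, 1141 and 1259 CPM, against 0, 799 and 3948 CPM, and were not called by edgeR (0.52 ± 1.38, adjusted p 0.86).

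Arcade cells reached 20 cells beside pharyngeal muscle in only 2 libraries, unc-86 and eat-4, so no test was made. The homeobox gene ceh-27 had 624 UMIs in arcade cells, at 1108 and 1112 CPM, and none in pharyngeal muscle, which makes it at least 5.39-fold higher against 3 UMIs. The gene pqn-60, of the prion-like glutamine- and asparagine-rich family, was at 7348 and 14157 CPM, against 666 and 1692 CPM. It also stood at 1824 CPM in marginal cells when summed over all libraries. Of tnc-2 arcade cells had no UMI, against 85 in pharyngeal muscle. The selector pha-4 had 186 UMIs in arcade cells and 3 in muscle, a ratio of 1.61 whose interval, 0.541 to 7.86, includes no difference.

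Factors of pharynx identity were found in several classes. Summed over all libraries, pha-4 was at 282 CPM in Pharyngeal_cells, 51.2 CPM in gland cells, 317 CPM in arcade cells, 347 CPM in marginal cells and 172 CPM in pharyngeal muscle, against 0.403 CPM in body wall muscle. Among the 5 pharynx classes its level was lowest in gland cells. Levels of ceh-22 were 57.8 CPM in Pharyngeal_cells, 2.33 CPM in gland cells, 0 in arcade cells, 87.8 CPM in marginal cells and 233 CPM in pharyngeal muscle (85.8 CPM without the unc-4c library). The factor ceh-34 stood at 423 CPM in Pharyngeal_cells and 251 CPM in marginal cells, against 10.3 CPM in pharyngeal muscle and 167 CPM in body wall muscle.

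**Figure D5:**
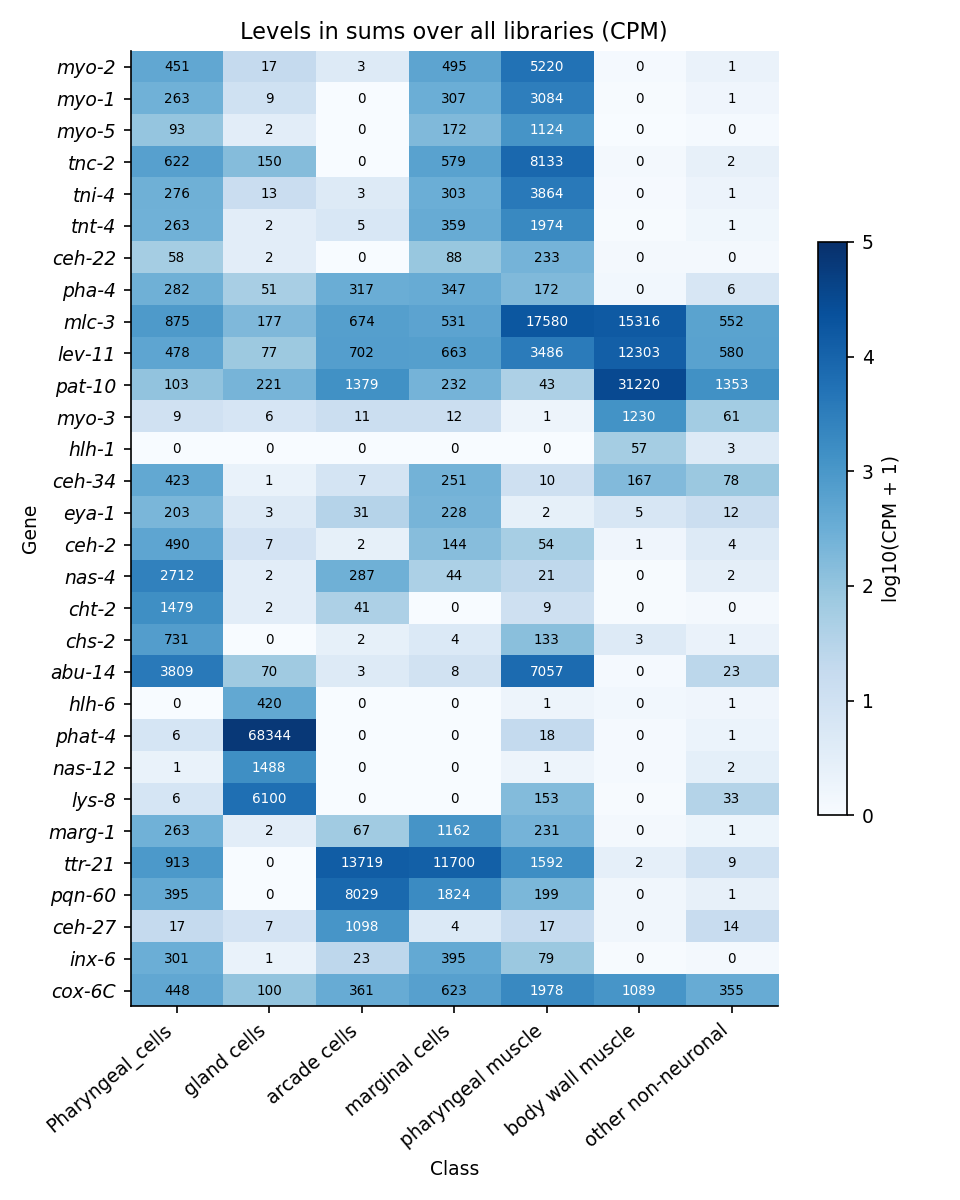
Levels of marker genes (rows) summed over all libraries in the 5 pharynx classes, body wall muscle and other non-neuronal cells (columns), printed as CPM on a color scale of log10(CPM + 1). Gene phat-4 is dark only in gland cells, tnc-2 is darkest in pharyngeal muscle, and pat-10 in body wall muscle.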

How the data were processed

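Pharynx cells were analysed in 16 single-cell libraries of sorted larval cells, grouped by the labels. The authors deposited raw UMI counts per gene and cell with an annotation of each cell. Per the submitters' processing notes the reads were processed with Cell Ranger 6.0.0, and the genome build is not given in the sources used here. Classes, tissues and libraries of cells come from the authors' annotation, and the library named for the P lineage at 11 to 14 h was matched to its label with less certainty than the others. No doublet caller was run and no cell was removed for doublets.

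From the deposited counts, UMIs were summed per class and library, with at least 20 cells on each side. Both sides of a pair come from the same library, which was a block in edgeR 4.0.16 (quasi-likelihood test, genes kept by filterByExpr, TMM factors from genes with at least 3 UMIs expected in the shallowest sum, R 4.3.3, limma 3.58.1). Calls needed a Benjamini-Hochberg adjusted p under 0.05 and a log2 fold change of at least 1 in size. DESeq2 1.42.0, other scalings, filters, cell minimums, thinning and leaving out each library were alternatives. The fits were checked on simulated counts. Nothing says that libraries of a group came from separate cultures, so p-values measure only the spread between libraries. Exact Clopper-Pearson and Poisson 95% intervals used scipy 1.17.1, with Python 3.11.15, numpy 2.4.6, pandas 2.3.3 and matplotlib 3.10.9.

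Named genes were those of 20 gene lists and, in each tested comparison, the 10 genes with the smallest p per direction among called genes with the same sign in every library, with 5 per direction for fixed against live cells. The members and lists were chosen with earlier results of these data known.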

Additional observations from a re-analysis of the deposited data

Results flagged for a closer look

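Summed levels of marker and gene lists in pharyngeal muscle were examined in 22 sets of 10 libraries, and in 7 a single library lay far from the rest. For evenly spread values such a gap arises by chance in about 1 in 20 sets, a rate that does not apply to sets that are nearly all 0. The unc-4c library stood apart with 23816 CPM of body wall contractile genes (others 1362 to 6684) and 1136 CPM of lysozymes and saposins (others 0 to 195). Most of that contractile sum was unc-54 and tnt-3, whose highest levels, given above, were in this library. Reads of unc-54 cannot be told from those of a reporter. The eat-4 library stood apart with 1551 CPM of innexins (others 157 to 668). The live ceh-34 library had 184 CPM of body wall muscle transcription factors (others 0 to 65.0), and the unc-86 library had 1199 CPM of basement membrane genes (others 124 to 569). The values of the eat-4, live ceh-34 and unc-86 libraries rest on few UMIs, since pharyngeal muscle held 7092, 21694 and 7505 UMIs there. The sets of coelomocyte and glia markers carry no information on a library. The 141 CPM of coelomocyte markers in the eat-4 library were 1 UMI, and the 1.83 CPM of glia markers in the unc-4c library were 2 UMIs, a level that the shallower libraries could not have shown.

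Values outside the tested comparisons also stood out. In arcade cells, which had too few libraries for a test, pqn-60 was at 8029 CPM over all libraries, against 1824 CPM in marginal cells, 199 CPM in pharyngeal muscle (1127 CPM without the unc-4c library) and 1.49 CPM in other non-neuronal cells, and ceh-27 was at 1098 CPM, against 16.6 and 14.4 CPM. In methanol-fixed Pharyngeal_cells ribosomal protein genes took 1.106% of UMIs, against 9.71 to 24.7% in the other libraries. The same library was the lowest in body wall muscle (7.36%, others 20.6 to 29%) and in other non-neuronal cells (4.15%, others 12.4 to 37.1%).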

How the results depend on the processing

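Counts of higher and lower genes moved with scaling, filter and depth, and the cause of each shift was not tested. Factors from all tested genes and the minimum of 10000 UMIs were alternatives chosen after seeing the data. Pharyngeal against body wall muscle gave 327 higher and 347 lower genes. The count of higher genes was 144 with DESeq2 size factors, 153 with factors from all tested genes, 138 in the DESeq2 Wald test and 609 with at least 10000 UMIs per side. Higher and lower counts were 1930 and 684 with no filter, 179 and 230 with at least 10 cells, 676 and 607 in cells with at least 500 UMIs, and 25 and 27 in thinned sums. Against other non-neuronal cells (401 and 301) they were 163 and 1284, 175 and 1104, and 176 and 1374 under those scalings and the Wald test, 946 and 2196 with no filter, 178 and 1711 without mitochondrially encoded and ribosomal protein genes, and 42 and 5 in thinned sums. Lower genes alone were 1895 in deeper cells and 678 with at least 10000 UMIs. There atp-1 reversed to -0.075 (DESeq2 factors) and -0.052 (Wald), and ant-1.1 to -0.11 and -0.10. Pharyngeal_cells (68 and 59) gave 755 and 259 with no filter, 34 higher when thinned and 97 lower with at least 10000 UMIs. Gland cells (89 and 130) gave 236 and 264 with no filter, 34 and 55 with at least 10 cells and 73 lower when thinned. Marginal cells (3 and 2) gave 9 and 16 in the Wald test, 15 and 46 with no filter and 0 lower when thinned.

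Leaving out each library gave 129 to 365 higher and 222 to 445 lower genes against body wall muscle, lowest without unc-4c. Against other cells it gave 209 to 464 and 165 to 370, lowest without unc-4c. The ranges were 57 to 99 and 53 to 88 for Pharyngeal_cells, 61 to 159 and 23 to 252 for gland cells, and 0 to 13 and 0 to 19 for marginal cells. With no replicate block, so that the pairing by library was dropped, the counts were 380 and 356, 418 and 331, 52 and 47, 87 and 90, and 3 and 2 in the same order of comparisons.

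Of the values of 268 named genes, 4544 kept direction and side of the threshold, 484 kept only the direction and 4 reversed.

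In cells with at least 500 UMIs the share of pharynx cells was 1.02% in NC3581, 0.284% in PS9221, 0% in pan-neuronal replicate 1, 1.52% in unc-86, 0.962% in fixed and 0.809% in live ceh-34 cells, 3.57% in mec-3 and 4.60% in unc-4c. It was 0.0371%, 0.0782%, 0.0511% and 0.364% in the P-lineage libraries by age, and 1.13% and 0.195% in the flp-7 replicates.

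Not possible were fixed against live pharyngeal muscle (4 fixed cells), a slope over P-lineage ages, deeper cells for the other pharynx classes, a minimum of 50 cells for gland and marginal cells, and a minimum of 10000 UMIs for marginal cells. Low depth limits what can be said of receptors and transcription factors, for which a level of 0 in a library is not absence.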
